A study of Mus musculus with 8 samples.

Results

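The BCL2 family of apoptosis regulators was examined in mouse acute myeloid leukemia (AML) cells that express the fusion gene MLL-AF9. The members were chosen by name, with earlier results of these data known. Bcl2, Bcl2l1, Mcl1 and Bcl2a1b protect cells, Bax and Bak1 carry out the killing step, and Bid, Bcl2l11, Bbc3 and Pmaip1 trigger it. Of these 10 genes, 9 were found among the 12823 rows of the count table, and Bcl2a1b was not analysed here.

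Proteins of this family decide at the outer mitochondrial membrane whether a stressed cell dies. BAX and BAK1 can form pores in that membrane and release cytochrome c, which starts the caspase cascade, while BCL2, BCL-XL (the product of Bcl2l1) and MCL1 hold them in check. The BH3-only proteins BID, BIM (Bcl2l11), PUMA (Bbc3) and NOXA (Pmaip1) carry the signal by binding the protective proteins, and some of them also engage BAX and BAK1 directly. NOXA binds mainly MCL1 and BCL2A1, whereas BIM and PUMA bind all protective members. In myeloid leukemia, cells often depend on MCL1 or BCL2 to survive, and Bax, Bbc3 and Pmaip1 are known targets of the tumor suppressor p53, which is encoded by Trp53 in the mouse.

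Reads were counted per gene in 8 libraries, 4 of new AML and 4 of aggressive AML. For new AML, bone marrow progenitors were transduced with MLL-AF9 together with GFP and placed in sublethally irradiated wild-type recipients, and the GFP+ cells of the resulting leukemia were used. For aggressive AML, the labels describe the remaining GFP+ cells of that leukemia after 5 serial transplantations, which the methods of the study place in non-irradiated mice. According to those methods the mice were C57BL/6J animals of 8 to 12 weeks, and a figure legend of the study names male mice. No drug is named for these RNA samples. All 8 libraries thus share the retroviral fusion gene and GFP, and no library of normal marrow or of leukemia with another driver was compared. The labels give the tissue as bone marrow and call the replicates biological without saying whether each came from its own mouse. The p-values therefore set the difference between the groups against the spread between these libraries, and they do not cover other MLL-AF9 leukemias.

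Total counts ranged from 7805544 to 9697777 per library, and the members drew between 114 and 3088 counts each. All 10 markers fixed for the leukemia cells were tested, with a summed level of 4540 to 5486 CPM (read counts of a gene relative to the scaled total of its library) in new AML and 4262 to 5122 CPM in aggressive AML. In edgeR 5 of these 10 were called, with Kit and Meis1 higher and Csf1r, Itgam and Hoxa10 lower in aggressive AML. Their log2 fold changes ranged from -1.70 (Csf1r) to 0.65 (Kit). Over all tested genes, 18.4% were called, with 8.15% higher and 10.2% lower in aggressive AML. As a sum, 13 neutrophil markers reached 375 to 555 CPM in new AML and 231 to 288 CPM in aggressive AML, 8 of them were lower and 1 was higher in aggressive AML, and none was at 0. Summed levels in new and aggressive AML were 85.5 to 151 and 56.9 to 91.9 CPM for macrophage markers, 137 to 208 and 121 to 153 CPM for erythroid markers, 40.2 to 45.4 and 30.6 to 34.0 CPM for B cell markers, and 14.7 to 26.1 and 23.9 to 35.9 CPM for T and NK cell markers. Of the tested genes of these lists, 2 of 5 macrophage, 2 of 8 erythroid and 1 of 2 B cell markers were lower and 1 of 2 T and NK cell markers was higher in aggressive AML, while 3 macrophage, 3 B cell and 10 T and NK cell markers had no row. The part of these differences in the values of the members was not tested. Fewer cells of a type and less RNA per cell cannot be told apart in these bulk libraries. Transcripts of 4 Y-linked genes summed to 251 to 287 CPM in the new AML libraries, while all 4 genes had 0 counts in every aggressive AML library, where 3 counts would correspond to 0.341 to 0.389 CPM. The labels derive the aggressive cells from the same leukemia and do not mention this difference. A difference between the cells of origin and the effect of transplantation cannot be told apart. Aggressive AML replicate 3 stood farthest from its own group, with a root mean square deviation of 0.355 (log2 scale) against 0.219 to 0.280 for the other libraries.

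The regulatory sequences of members that answer to FOXO factors or p53 are shown first, because these factors are known inputs to the family. The windows are the 250 bases before a transcription start in the RefSeq annotation of GRCm38.p6, written 5′ to 3′ on the strand of the gene, and none overlaps an annotated exon. The first lies before Bcl2l11 at chr2:128125788-128126037 on the plus strand, and its capitals mark the FOXO site GTAAACA, which ends 220 bases before the start. The next lies before a RefSeq start that lies inside the span of Bbc3, at chr7:16310011-16310260 on the plus strand, with the same site in its reverse complement TGTTTAC, 160 bases from the start. The last lies before Bax at chr7:45466899-45467148 on the minus strand, and its capitals mark a sequence that matches the p53 half-site, 191 bases from the start.
Bcl2l11: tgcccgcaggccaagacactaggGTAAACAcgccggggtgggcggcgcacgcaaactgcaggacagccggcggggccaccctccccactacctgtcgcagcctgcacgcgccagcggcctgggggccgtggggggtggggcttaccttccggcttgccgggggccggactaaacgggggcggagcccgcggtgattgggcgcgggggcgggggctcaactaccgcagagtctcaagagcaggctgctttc
Bbc3: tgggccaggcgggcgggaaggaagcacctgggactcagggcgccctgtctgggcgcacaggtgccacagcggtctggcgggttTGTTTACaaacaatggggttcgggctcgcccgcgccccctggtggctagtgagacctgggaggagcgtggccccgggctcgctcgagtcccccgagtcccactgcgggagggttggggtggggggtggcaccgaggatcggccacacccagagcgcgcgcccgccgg
Bax: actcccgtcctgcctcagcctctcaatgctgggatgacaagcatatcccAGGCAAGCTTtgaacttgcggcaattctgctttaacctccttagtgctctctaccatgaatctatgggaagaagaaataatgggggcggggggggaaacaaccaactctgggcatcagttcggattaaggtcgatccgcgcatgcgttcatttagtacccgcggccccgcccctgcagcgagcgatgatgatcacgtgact

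Letter matches in these windows are descriptions and not evidence of binding. Among 32851 RefSeq windows of 300 bases (250 before and 50 after a start), searched on both strands, the FOXO site was present in 3.65%, and among the 14 windows of 9 members (Pmaip1 has none in the table) it was present only before Bcl2l11 and Bbc3. The p53 half-site was present in 8.36% of all windows and in 1 of the 14 member windows, before Bax. The E-box CACGTG, the core site of MYC, was present in 2 of the 14 member windows, before Bax and Bbc3, and in 7.15% of all windows. The GC box GGGCGG, a site of SP1, was found in 10 of the 14 member windows, before 7 genes, and in 35.7% of all windows. No member window held the cyclic AMP response element TGACGTCA or the STAT site TTCNNNGAA, which occur in 1.79% and 8.3% of all windows.

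In the comparison of aggressive with new AML, 1 of the 9 measured members was called different. This was Pmaip1, which rose 1.57-fold. The other 8 members did not pass the test, and their log2 fold changes ranged from -0.21 to 0.23. In the edgeR quasi-likelihood test with Benjamini-Hochberg adjustment over all 12494 tested genes, 18.4% of genes were called at an adjusted p under 0.05, with 8.15% higher and 10.2% lower in aggressive AML. The groups did not overlap in 1 member, against 21.8% of all tested genes. The median log2 fold change was 0.07 over the members and 0.00 over all tested genes, and 7 members had a value above 0. An unadjusted p under 0.05 in edgeR was found for 3 of the 9 members, Pmaip1, Mcl1 and Bax, against 4070 of all 12494 tested genes.

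**Figure D1:**
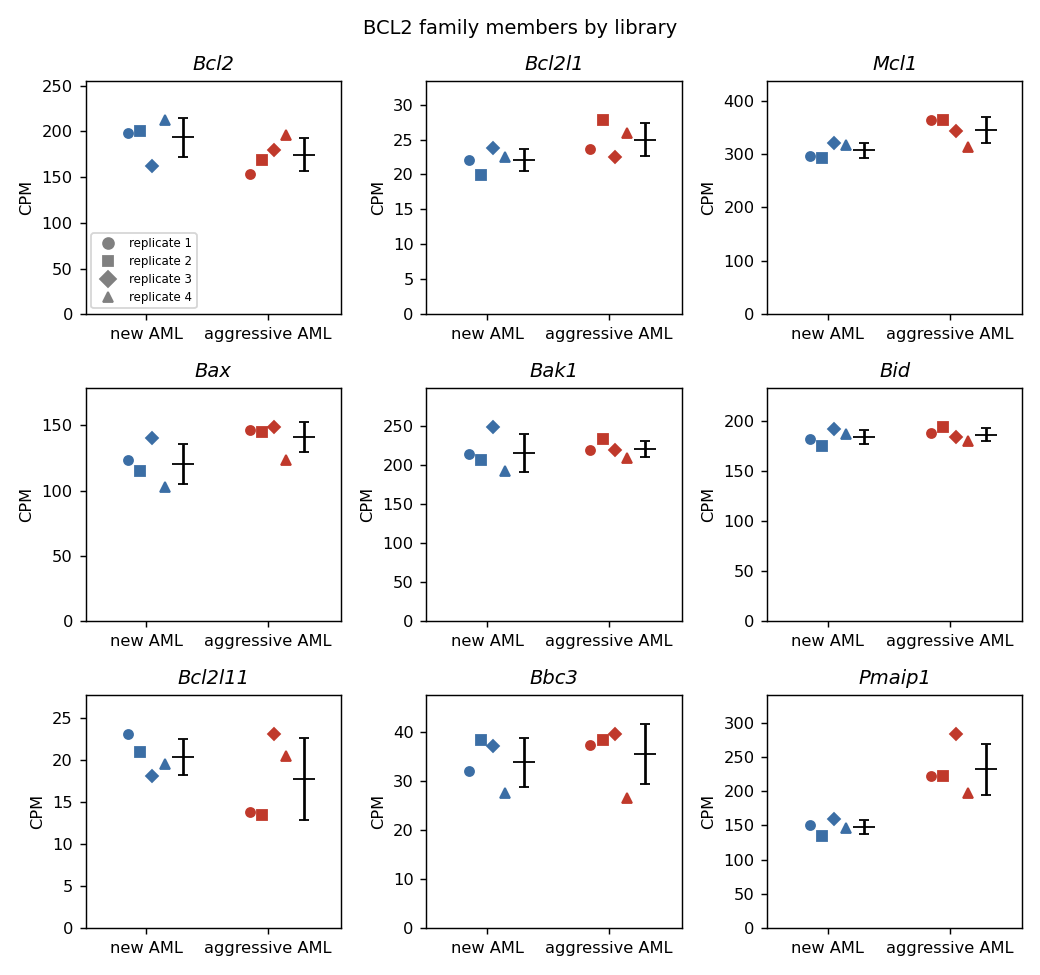
Level of each measured member in CPM (vertical axes, starting at 0) in the 4 new AML (blue) and 4 aggressive AML (red) libraries, with marker shape for the replicate number and bars for the mean and SD. Pmaip1 is the 1 member whose groups do not overlap. For Mcl1 the overlap rests on aggressive AML replicate 4 (312 CPM). For Bax it rests on new AML replicate 3 (140.1 CPM) lying above aggressive AML replicate 4 (124 CPM).

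Among the protective members, Mcl1 encodes a short-lived protein on which many myeloid cells rely, and its mean level per exon length was close to that of Bak1 in new AML. The gene lies at chr3:95658788-95663176 (GRCm38, plus strand). Its libraries measured 296, 293, 321 and 316 CPM in new AML and 363, 364, 343 and 312 CPM in aggressive AML. The first 3 aggressive libraries lay above all new AML libraries, and aggressive replicate 4 lay within their range. The means were 306.8 ± 13.8 and 346 ± 24.2 CPM (SD, n = 4 each), and the log2 fold change was 0.17 (SE 0.072, 95% interval 0.02 to 0.33, edgeR adjusted p = 0.111). Without aggressive AML replicate 4 the value was 0.22 and was called, with an adjusted p = 0.0462 in edgeR.

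Bcl2 encodes the founding protective protein and the target of venetoclax, a drug used in AML. The gene spans chr1:106538178-106714274 on the minus strand and shares 6.09% of its exon bases with an antisense gene, D630008O14Rik. It measured 198, 201, 163 and 212 CPM in new AML and 153, 169, 179.8 and 196 CPM in aggressive AML. The ranges overlapped widely, and new AML replicate 3 was lower than all but 1 aggressive library. Its mean was 194 ± 21.5 CPM in new and 174 ± 17.9 CPM in aggressive AML (SD, n = 4 each), and the log2 fold change was -0.15 (SE 0.095, 95% interval -0.35 to 0.05, edgeR adjusted p = 0.292). The interval allows a level in aggressive AML between 0.783 and 1.04 times that in new AML. The log2 fold change was -0.09 without aggressive AML replicate 1 and -0.23 without new AML replicate 3.

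Bcl2l1 encodes BCL-XL, which sustains erythroid cells and platelets in particular. The gene (chr2:152780668-152831728, minus strand) was low in both groups, at 22.1, 19.98, 23.8 and 22.5 CPM in new AML and 23.6, 27.8, 22.6 and 26.0 CPM in aggressive AML. The groups overlapped, although the highest 2 libraries were both aggressive. The log2 fold change was 0.18 (SE 0.115, 95% interval -0.07 to 0.42, edgeR adjusted p = 0.304), from a mean of 22.1 ± 1.57 to 24.98 ± 2.36 CPM (SD, n = 4 each). None of the 3 protective members was called, and in edgeR 1 of them had an unadjusted p under 0.05.

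Of the pore-forming effectors, Bax, whose product resides in the cytosol until activated, measured 123, 115, 140.1 and 103 CPM in new AML and 147, 145, 149 and 124 CPM in aggressive AML. Aggressive replicates 1 to 3 exceeded every new AML library, whereas aggressive replicate 4 fell within the range of new AML. The means were 120.4 ± 15.6 and 141 ± 11.7 CPM (SD, n = 4 each), with a log2 fold change of 0.23 (SE 0.097, 95% interval 0.02 to 0.43, edgeR adjusted p = 0.115). The call depended on the libraries used, since Bax passed the test without new AML replicate 3 (log2 fold change 0.31, edgeR adjusted p = 0.0336). Bax (chr7:45461697-45466898, minus strand) shares 192 exon bases, or 12.2% of its exon length, with the predicted gene Gm45808 on the same strand. The annotation used for counting is not given. If it held both genes, reads within the shared bases would not point to Bax alone.

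Bak1, whose product sits in the mitochondrial membrane permanently, had 214, 206, 249 and 192 CPM in new AML and 219, 234, 219.8 and 209 CPM in aggressive AML. All aggressive values lay inside the range of new AML, and the means were 215 ± 24.3 and 220.4 ± 10.1 CPM (SD, n = 4 each). The log2 fold change was 0.03 (95% interval -0.14 to 0.21, edgeR adjusted p = 0.813), and 25.5% of the exon bases of the gene (chr17:27019810-27029009, minus strand) overlap Ggnbp1 on the opposite strand, which unstranded counting would not separate. Its sign turned without new AML replicate 4, at -0.018.

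Of the BH3-only members, Pmaip1, which encodes NOXA, was at 149.9, 135, 159 and 146 CPM in new AML and at 223, 222, 284.5 and 198 CPM in aggressive AML. Every aggressive library lay above every new AML library, and the smallest distance was between aggressive replicate 4 and new replicate 3. The mean rose from 147 ± 10.04 to 232 ± 36.9 CPM (SD, n = 4 each), so that the log2 fold change was 0.65 (SE 0.101, 95% interval 0.44 to 0.87, edgeR adjusted p = 0.000377). This corresponds to 1.57-fold, with an interval of 1.36 to 1.82. Among all tested genes, 11.8% had a larger absolute log2 fold change. The aggressive values also spread more than those of new AML, with aggressive replicate 3 the highest, and without that library the log2 fold change was 0.54 (edgeR adjusted p = 0.000244).

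Bid, which is cleaved by caspase-8 and links death receptors to mitochondria, varied least over the 8 libraries, its highest value being 1.11 times its lowest. Its values were 183, 175, 192 and 187 CPM in new AML and 188, 195, 184 and 180.3 CPM in aggressive AML, so that the groups covered nearly the same range. The means were 184 ± 7.20 and 187 ± 6.17 CPM (SD, n = 4 each), with a log2 fold change of 0.02 (95% interval -0.13 to 0.16, edgeR adjusted p = 0.868) and of -0.0050 without new AML replicate 2. The gene lies at chr6:120891930-120916853 on the minus strand, and 17.7% of its exon bases overlap Bcl2l13 on the opposite strand.

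Bbc3, which encodes PUMA, measured 32.0, 38.3, 37.1 and 27.5 CPM in new AML and 37.2, 38.4, 39.7 and 26.4 CPM in aggressive AML. The gene lies at chr7:16308393-16318205 on the plus strand. Replicate 4 was the lowest library in both groups, and the groups overlapped, with means of 33.8 ± 4.96 and 35.4 ± 6.10 CPM (SD, n = 4 each). The log2 fold change was 0.07 (95% interval -0.23 to 0.37, edgeR adjusted p = 0.769), which leaves a change of the size seen in Pmaip1 outside its interval. Without new AML replicate 4 it was -0.017.

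Bcl2l11, which encodes BIM, a killer protein induced by FOXO factors when growth factor signals fail, had 23.1, 21.0, 18.1 and 19.5 CPM in new AML and 13.9, 13.4, 23.2 and 20.5 CPM in aggressive AML. The aggressive libraries were split, with replicates 1 and 2 below every new AML library and replicates 3 and 4 within or above their range. The mean moved from 20.4 ± 2.15 to 17.7 ± 4.87 CPM (SD, n = 4 each), with a log2 fold change of -0.21 (SE 0.172, 95% interval -0.57 to 0.16, edgeR adjusted p = 0.436). Single libraries moved this value to between -0.35, when aggressive AML replicate 3 was left out, and -0.09, when aggressive AML replicate 2 was left out, and without aggressive AML replicate 1 it was -0.10. Counts of this gene (chr2:128126038-128162547, plus strand) ranged from 114 to 225 per library and were below those of every other measured member except Bcl2l1. Bcl2l1 had fewer counts in new AML replicates 1 and 2 and in aggressive AML replicate 3.

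**Figure D2:**
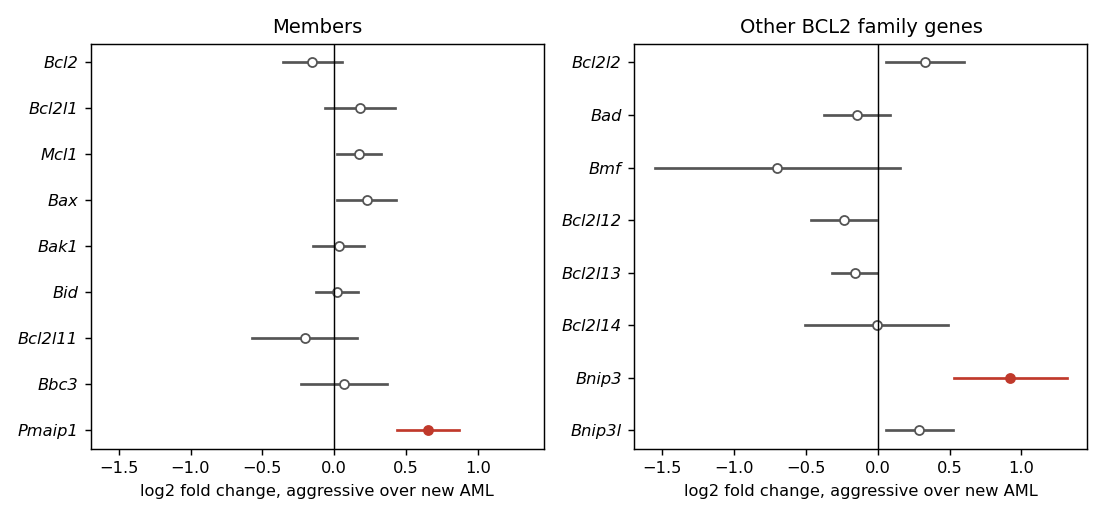
Log2 fold changes of aggressive over new AML (horizontal axes) with 95% intervals for the 9 measured members and the 8 measured other BCL2 family genes, filled red where called in edgeR. Pmaip1 at 0.65 and Bnip3 at 0.92 are the 2 genes called.

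Levels were compared between members per kilobase of exon, with the exon union of the GENCODE annotation. In new AML the mean order was Mcl1 (89.8 CPM per kilobase), Bak1 (89.5), Bax (76.4), Pmaip1 (53.96), Bid (51.9), Bcl2 (21.1), Bbc3 (15.9), Bcl2l1 (4.82) and Bcl2l11 (2.54). The order of the means was the same in aggressive AML, where they were 101 for Mcl1, 91.6 for Bak1, 89.5 for Bax, 84.9 for Pmaip1, 52.6 for Bid, 19.04 for Bcl2, 16.7 for Bbc3, 5.45 for Bcl2l1 and 2.21 for Bcl2l11. Not all neighbours were separated by more than their spread. In both groups the libraries of Mcl1 and Bak1, of Bak1 and Bax, and of Bcl2 and Bbc3 overlapped. Within single libraries, Mcl1 lay above Bak1 in 2 of 4 new and 4 of 4 aggressive libraries. Bak1 lay above Bax in 4 of 4 and 2 of 4, and Bcl2 above Bbc3 in 4 of 4 and 3 of 4, respectively.

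The libraries of Pmaip1 overlapped with those of Bid in new AML and with those of Bax in aggressive AML. In new AML it lay beside Bid, whose libraries reached 54.2 CPM per kilobase against a lowest Pmaip1 library of 49.3, while in aggressive AML its lowest library, at 72.4, lay above the highest Bid library, at 54.9. It reached the range of Bax there, whose lowest library was at 78.5 and the highest of Pmaip1 at 104. The order depended on the lengths used. With the longest transcript of each gene, Bax came first in both groups, at 109 and 128 CPM per kilobase, and Bid, at 76.4, stood above Pmaip1, at 54.1, in new AML but below it in aggressive AML, where they were at 77.4 and 85.0.

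**Figure D3:**
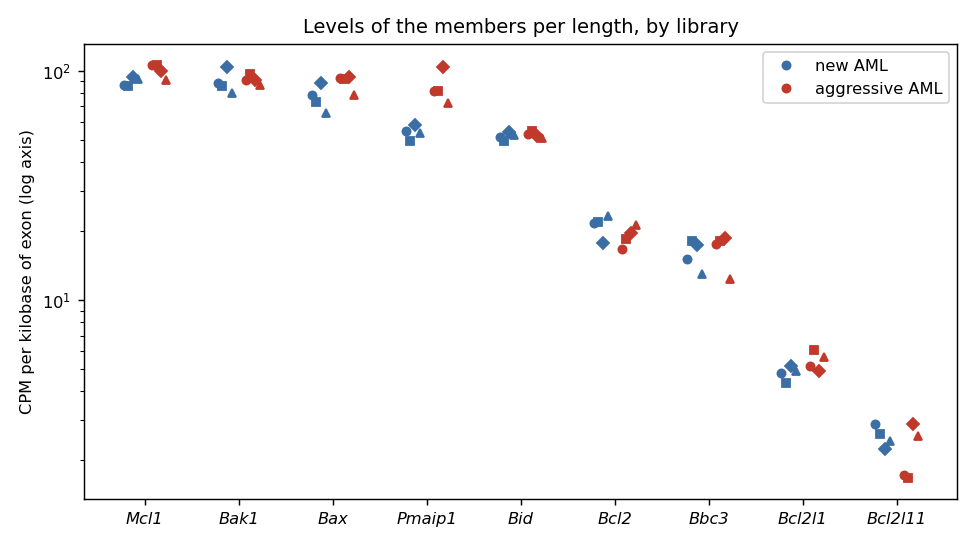
Level of each measured member in CPM per kilobase of exon on a log axis, by library, for new AML (blue) and aggressive AML (red), in the order of the new AML means. Pmaip1 overlaps Bid in new AML (means 53.96 and 51.9) and Bax in aggressive AML (means 84.9 and 89.5).

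The make-up of the BH3-only transcripts per length is given as a description. Pmaip1 made up 44.2, 41.3, 44.0 and 44.0% of them in new AML and 53.03, 52.2, 58.6 and 52.4% in aggressive AML, without overlap. Its mean share was 43.4 ± 1.39% in new and 54.1 ± 3.07% in aggressive AML (SD, n = 4 each). The share of Bid was 41.8 ± 1.06% and 33.9 ± 3.26% without overlap, although its own level hardly differed, because the shares of a library add up to a fixed sum. Bbc3 held 12.8% and 10.6%, and Bcl2l11 held 2.05% and 1.42%, each with overlap between groups. With the longest transcript lengths, Pmaip1 held 35.3% and 45.7%, again without overlap. Bid then held 49.9% and 42.0%, also without overlap. With these lengths the mean share of Bid was above that of Pmaip1 in new AML and below it in aggressive AML.

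The make-up of the protective transcripts overlapped between the groups. Mcl1 held 77.6 ± 1.87% in new AML and 80.4 ± 2.42% in aggressive AML, Bcl2 held 18.3 ± 2.06% and 15.2 ± 2.18%, and Bcl2l1 held 4.16% and 4.34%.

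Ratios between members can matter for survival, and 5 ratios of transcript levels per length were therefore computed within each library, as a description without a test. Mcl1 to Bcl2 compares protective members with each other, and each other pair sets an effector or BH3-only member against a protective member. The log2 ratio of Pmaip1 to Mcl1 was -0.66, -0.80, -0.69 and -0.79 in new AML and -0.38, -0.39, 0.05 and -0.34 in aggressive AML. The groups did not overlap, and aggressive replicate 3 was the 1 library with more Pmaip1 than Mcl1 per length. The mean was higher by 0.47 in aggressive AML and by 0.37 to 0.51 when each library was left out in turn.

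The other ratios overlapped between the groups. Bax to Bcl2 averaged 1.85 ± 0.35 in new and 2.24 ± 0.25 in aggressive AML (SD, n = 4 each) as a log2 ratio, and Mcl1 to Bcl2 had 2.09 ± 0.21 and 2.41 ± 0.25. For both, new AML replicate 3 was the highest of its group, in which Bcl2 was lowest. Bcl2l11 to Mcl1 moved from -5.15 ± 0.21 to -5.55 ± 0.48, and Bcl2l11 to Bcl2 from -3.05 ± 0.15 to -3.14 ± 0.30. The last difference, -0.09, was 0.018 without aggressive AML replicate 2, and it was -0.22 when replicate 3 of that group was left out.

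**Figure D4:**
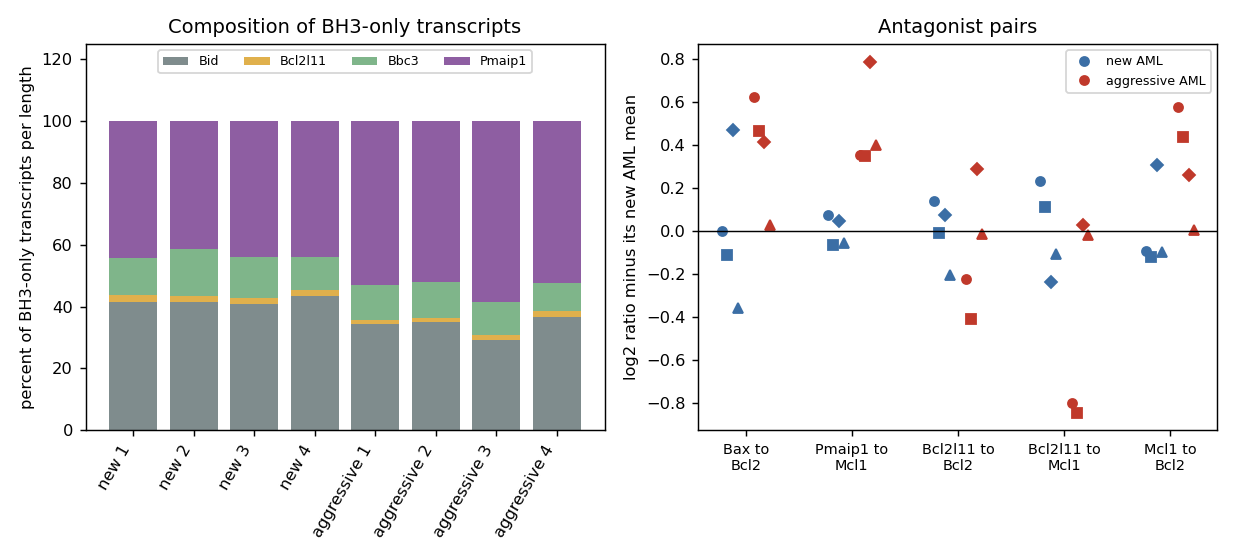
Left, share of each BH3-only member in the summed BH3-only transcripts per length (percent, stacked bars, 1 per library). Right, log2 ratio of 5 pairs in each library minus the new AML mean of that pair, for new AML (blue) and aggressive AML (red), with marker shapes for the replicate number. Pmaip1 holds 41.3 to 44.2% in new AML and 52.2 to 58.6% in aggressive AML, and Pmaip1 to Mcl1 is the pair whose groups are separated.

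The 3 genes whose pattern over the 8 libraries was most like that of Pmaip1 were Pex3, Lacc1 and Nmd3, by the root mean square difference of centred log2(CPM + 1) values. Pex3, a factor of peroxisome assembly, differed from it by 0.071 and moved from 13.5 to 20.9 CPM. Lacc1, an enzyme of macrophage metabolism, differed by 0.0804 and moved from 25.7 to 40.8 CPM. Nmd3, which exports large ribosomal subunits from the nucleus, differed by 0.0818 and moved from 56.9 to 82.1 CPM.

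Further genes of the BCL2 family were examined as a list of 15, of which 8 were measured. Of these, 1 was called in edgeR, while 18.4% of all tested genes were called. An unadjusted p under 0.05 was found for 5, against 4070 of all 12494 tested genes. The median log2 fold change was -0.08. Bnip3, a mitochondrial protein that promotes mitophagy and responds to hypoxia, measured 11.3, 15.3, 15.4 and 10.6 CPM in new AML and 24.8, 18.4, 33.7 and 22.9 CPM in aggressive AML, without overlap. It rose by 0.92 on the log2 scale (SE 0.185, edgeR adjusted p = 0.00289). Bcl2a1a and Bcl2a1d, close copies of Bcl2a1b, were not analysed here.

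Downstream of the pore, 22 genes of the mitochondrial apoptosis machinery, such as cytochrome c, APAF1, the caspases and their inhibitors, were all measured. In edgeR, 1 of the 22 rose, 1 fell and 20 did not pass, while 18.4% of all tested genes were called. The median log2 fold change of the list was -0.01. Vdac2, an outer membrane channel that binds BAK1 and BAX, rose from 252 ± 22.0 to 323 ± 25.1 CPM (SD, n = 4 each), and its log2 fold change was 0.36 (SE 0.081, edgeR adjusted p = 0.00644). Xiap, an inhibitor of caspases, fell from 129.7 ± 13.6 to 105 ± 10.7 CPM, and its log2 fold change was -0.31 (SE 0.095, edgeR adjusted p = 0.0342). The call of Xiap was lost without new AML replicate 2 or 4 or aggressive AML replicate 1 or 3, with adjusted p between 0.0753 and 0.115.

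A list of 31 genes that control the family at the level of transcription or protein held 30 tested genes. Of these, 2 rose, 1 fell and 27 did not pass in edgeR, while 18.4% of all tested genes were called. The median log2 fold change of the list was -0.04. An unadjusted p under 0.05 was found for 14 of the 30, against 4070 of all 12494 tested genes. Atf4, a transcription factor of the integrated stress response, measured 249.98, 225, 270.1 and 204 CPM in new AML and 449, 423, 307 and 275 CPM in aggressive AML. It was higher in all aggressive libraries and highest in replicates 1 and 2, with a log2 fold change of 0.62 (SE 0.138, edgeR adjusted p = 0.00586). Hif1a, the oxygen-regulated transcription factor, rose from 108 ± 6.00 to 136 ± 11.7 CPM (SD, n = 4 each), with a log2 fold change of 0.33 (SE 0.082, edgeR adjusted p = 0.0111). Stat3, a transcription factor that can induce Mcl1, fell from 167 ± 6.75 to 129 ± 8.64 CPM, and its log2 fold change was -0.37 (SE 0.075, edgeR adjusted p = 0.00289).

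Trp53 and Foxo3, upstream of Pmaip1, Bbc3, Bax and Bcl2l11, were named after their values were seen. Trp53 averaged 174 ± 19.9 CPM in new AML and 155 ± 22.7 CPM in aggressive AML, with a log2 fold change of -0.16 (edgeR adjusted p = 0.325). Foxo3 averaged 113 ± 13.9 and 92.8 ± 6.70 CPM, with a log2 fold change of -0.28 (edgeR adjusted p = 0.0516). Neither passed the test. The values are RNA levels and say nothing of protein amount, which for MCL1 and p53 is set largely by degradation.

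**Figure D5:**
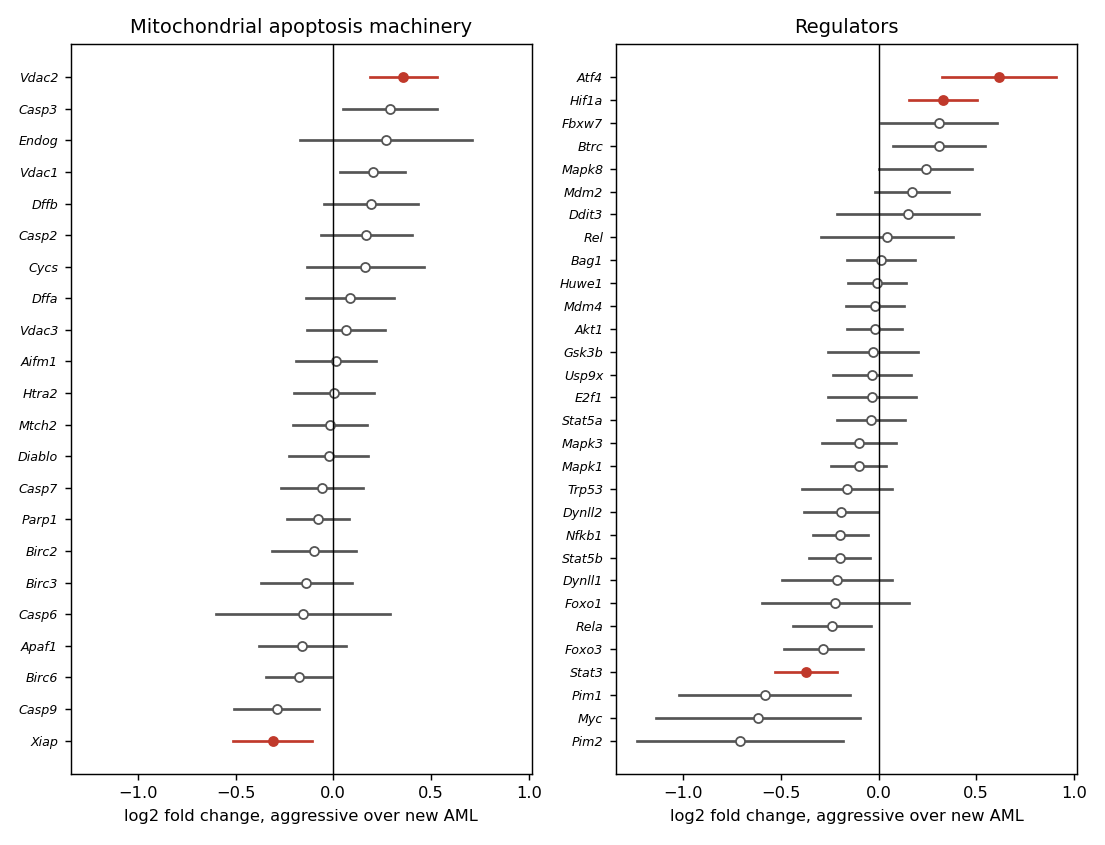
Log2 fold changes of aggressive over new AML with 95% intervals for the 22 genes of the apoptosis machinery and the 30 tested regulators, filled red where called in edgeR. Vdac2, Atf4 and Hif1a are called higher, and Xiap and Stat3 are called lower.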

How the data were processed

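RNA of GFP+ leukemia cells was sequenced from both ends after poly(A) selection. Per the study's methods, the authors aligned reads to mm10 with HISAT2, obtained read counts with Rsubread and dropped genes below 1 CPM. The gene annotation and strand setting are not given in the sources used here. Although its name refers to CPM, the deposited table holds whole numbers whose totals differ by library, and these were used as raw read counts.

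A gene entered the test if 4 or more libraries reached 1 CPM, which kept 12494 of 12823 rows. edgeR (version 4.0.16, R 4.3.3) was used with trimmed mean of M-values (TMM) scaling and the quasi-likelihood test on group alone, two-sided, with Benjamini-Hochberg adjustment over all tested genes and a threshold of 0.05. The test was checked on simulated counts. Alternatives were DESeq2 (1.42.0), limma and limma-voom (3.58.1), other scalings and filters, a replicate block, and each library left out in turn. Standard errors were derived from the F statistic of each fold change. Counting error alone underlies the 3-count limits.

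The members, gene lists and tests were chosen with earlier results of these data known. All members were named, and so was every called gene among the other BCL2 family genes, the apoptosis machinery and the regulators. The 5 leukemia markers were named after their values were seen. Lengths were planned from RefSeq exons but were taken from the GENCODE M21 exon union, because the RefSeq table in hand gives gene spans alone. Promoter sequences are from RefSeq (GRCm38.p6, the build of mm10). Of the 31 regulators, March5 could not be matched and was not analysed here. The labels record no batch or date, and a batch that follows the group cannot be told apart from it.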

Additional observations from a re-analysis of the deposited data

Results flagged for a closer look

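Over the 9 measured members, the 6 called genes of the related lists and the 5 ratios, 40 groups of 4 libraries were checked for a library far from the rest of its group, and 3 were found, where chance gives about 1 group in 20. Bax in aggressive AML replicate 4, at 123.72 CPM, lay below the other aggressive libraries by 0.846 of the whole range of the group. The log2 ratio of Pmaip1 to Mcl1 in aggressive AML replicate 3, at 0.054, lay above the others by 0.882 of the range. The log2 ratio of Mcl1 to Bcl2 in new AML replicate 3, at 2.40, lay above the others by 0.928 of the range.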

How the results depend on the processing

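Pmaip1 kept its direction and its call in all 16 alternatives, with log2 fold changes of 0.54 to 0.73 and adjusted p of 1.11e-07 to 0.00277. The number of members called was 1 to 2 when each library was left out in turn, with 2 without new AML replicate 3 (Bax) or aggressive AML replicate 4 (Mcl1). Over all genes it was 1466 to 2324, lowest without new AML replicate 2. For the other BCL2 family genes it was 1 to 3, for the apoptosis machinery 1 to 3 and for the regulators 3 to 5. The regulators called numbered 6 with DESeq2 and 5 with limma on log2(CPM + 1), against 3 in edgeR. Small differences of 3 members changed sign when 1 library was left out, with ranges of -0.018 to 0.110 for Bak1 and -0.017 to 0.196 for Bbc3 (lowest without new AML replicate 4) and -0.0050 to 0.044 for Bid (lowest without new AML replicate 2). The cause was not tested.

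With the replicate block, 2 members were called, since Bax passed the test (edgeR adjusted p = 0.0494), and 5 regulators. The numbers did not pair the libraries, as the correlation of deviations between same-numbered libraries was 0.0967, -0.0399, -0.0654 and 0.204 and 1 of the 4 numbers had its best match in its own. With 4 libraries a group, the intervals of the members not called still allow log2 fold changes from -0.57 (Bcl2l11) to 0.43 (Bax).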
